A study of Drosophila melanogaster with 6 samples.

Results

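The nuclear genes of mitochondrial complex I were examined in heads of paraquat (PQ)-fed Drosophila. A gene was taken as a member when its Gene Ontology annotation in the deposited expression table held the term for the mitochondrial respiratory chain complex I or the term for electron transport from NADH to ubiquinone. These terms selected 39 of 14604 genes. The complex term was carried by 38 of them and the transport term by 31, with 30 carrying both. The rule used annotation only and no measured value, although it was set with earlier results of these data known. The 4174 genes of the table that carry no annotation could not be selected.

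RNAseq was performed on heads of wild type (WT) Canton S males, 3 to 5 days after eclosion. Control flies fed on 2.5% sucrose, and PQ-fed flies on 5 mM PQ dissolved in it, each over 12 h. The extraction protocol names 30 males per group. Each group has 3 libraries here, labelled as replicates 1 to 3. Values are RPKM (reads per kilobase of transcript, scaled to the mapped reads of the library), which can be compared between genes of different length.

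Complex I is the entry point of the respiratory chain. It oxidizes NADH through a flavin and a chain of iron-sulfur clusters, passes the electrons to ubiquinone and pumps protons across the inner mitochondrial membrane. A peripheral arm in the matrix holds the NADH-oxidizing module and the quinone-reducing module, and a membrane arm holds the proton pumps, whose core subunits are encoded in mitochondrial DNA. The remaining nuclear subunits are called accessory, and further proteins assemble the complex without being part of it. PQ is a redox-cycling herbicide that takes up electrons from cellular reductases and passes them to oxygen, and complex I has been described as one of its electron donors.

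The lowest RPKM in the table is 1, a floor shared by 34.8% to 35.5% of the genes in each library. All 6 libraries were above the floor for 32 members, and the other 7 members were listed at the floor in all 6. No member was partly at the floor. The 32 measured members comprise all 7 nuclear core subunits, 23 accessory subunits, the assembly factor CIA30 (CG7598) and ND-MLRQ (CG32230), whose mammalian ortholog NDUFA4 is assigned to complex IV. The genes are spread over the chromosome arms of the dm3 assembly, with 9 members on X, 9 on 2L, 8 on 3L, 7 on 2R and 5 on 3R. All 9 members on X were measured. The closest pair of members, ND-20L (CG2014) and CIA30 on 3R, lies 220487 bp apart, so the members form no cluster in the genome. Their summed exon length had a median of 880 bases over the measured members, with a range from 477 to 2634, against a median of 2084 over the tested genes with a known length.

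The members ranked among the more abundant mRNAs of the head. The mean RPKM of a measured member over the libraries stood between the 71.9th and the 98.4th percentile of the tested genes, with a median of the 95.4th. In the sucrose-fed group the mean ranged from 34.9 ± 6.07 (SD, n = 3) for CIA30 to 492 ± 47.3 for ND-MLRQ, a ratio of 14.1. Between these ends the levels were close together, since 27 of the 32 members had a sucrose mean between 100 and 300 RPKM. The order of the members by level was nearly fixed, with a Spearman rho between any pair of libraries from 0.979 to 0.995 across the 32 genes. Genes of 1 sample are not independent replicates, and these coefficients describe the profile only.

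**Figure D1:**
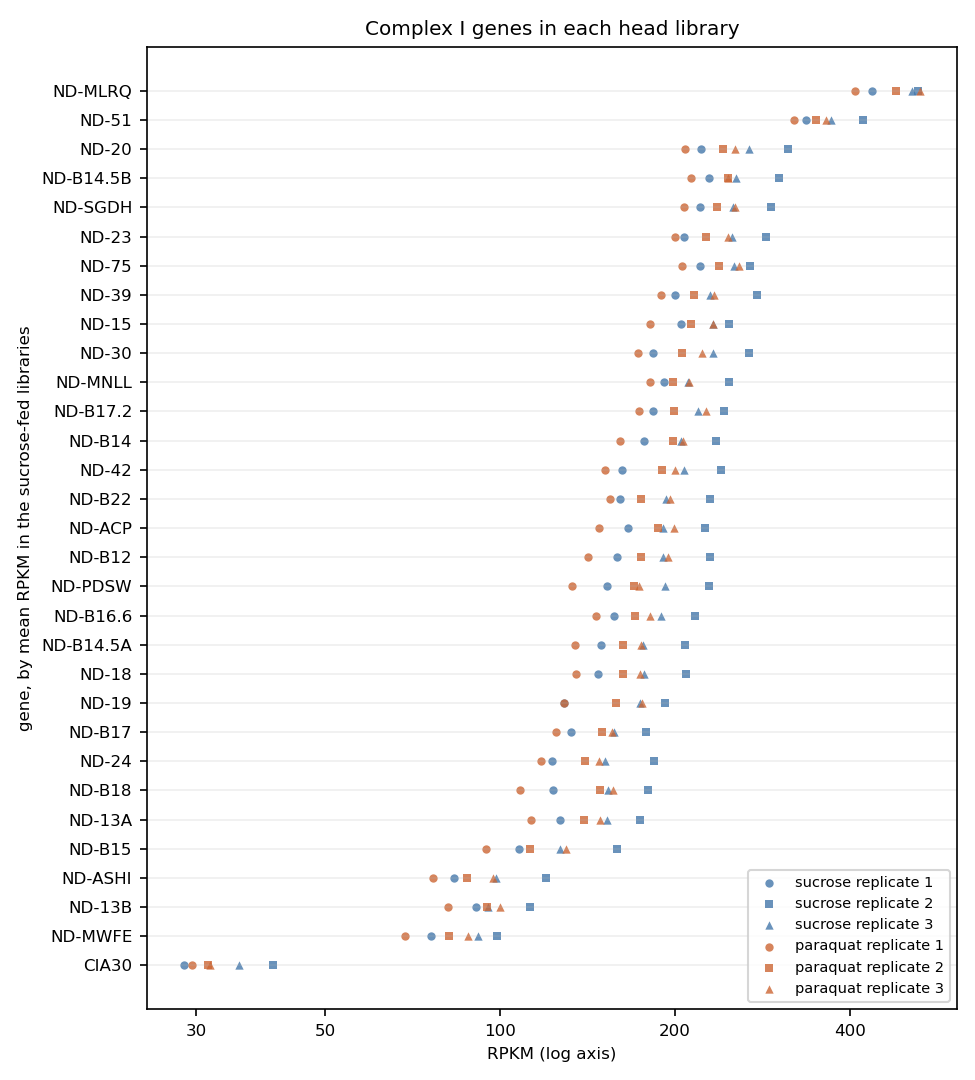
RPKM of the measured complex I genes named in the plot, in each of the 6 head libraries, on a log axis, with genes ordered by their mean in the sucrose-fed group. Circles, squares and triangles mark replicates 1, 2 and 3, with blue for sucrose-fed and orange for PQ-fed flies. The highest value is sucrose replicate 2 for every gene shown but ND-MLRQ, and the lowest is PQ replicate 1 for every gene shown but CIA30.

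The question put to these genes was whether their mRNA differed between PQ-fed and sucrose-fed flies at 12 h. No member passed the test. Every measured member had a lower mean log2 value in the PQ-fed group, by small amounts that did not exceed the spread between the libraries. The log2 fold change ranged from -0.26 for ND-PDSW (Pdsw) to -0.06 for ND-MLRQ, with a median of -0.14, and all 32 intervals at the 95% level included 0. The lowest end of any interval was -0.66 and the highest end was 0.33. The median over the 9853 tested genes was -0.02. The test was limma on log2(RPKM + 0.5) over all tested genes, with Benjamini-Hochberg adjustment. It called 0 of 32 members, against 8 genes or 0.0812% of all tested genes. The members' adjusted p ranged from 0.951 to 0.953 in limma, and the smallest unadjusted p was 0.174 for ND-PDSW. At an unadjusted p under 0.05 there were 0 members, against 3.89% of all tested genes. A negative fold change was found for 32 of 32 members, against 57.8% of all tested genes. It was found for 1129 of the 1545 tested genes at or above the lowest member's mean RPKM and in the members' exon length range. The members rose and fell together across libraries, as described next, so these 32 signs are not independent of each other.

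**Figure D2:**
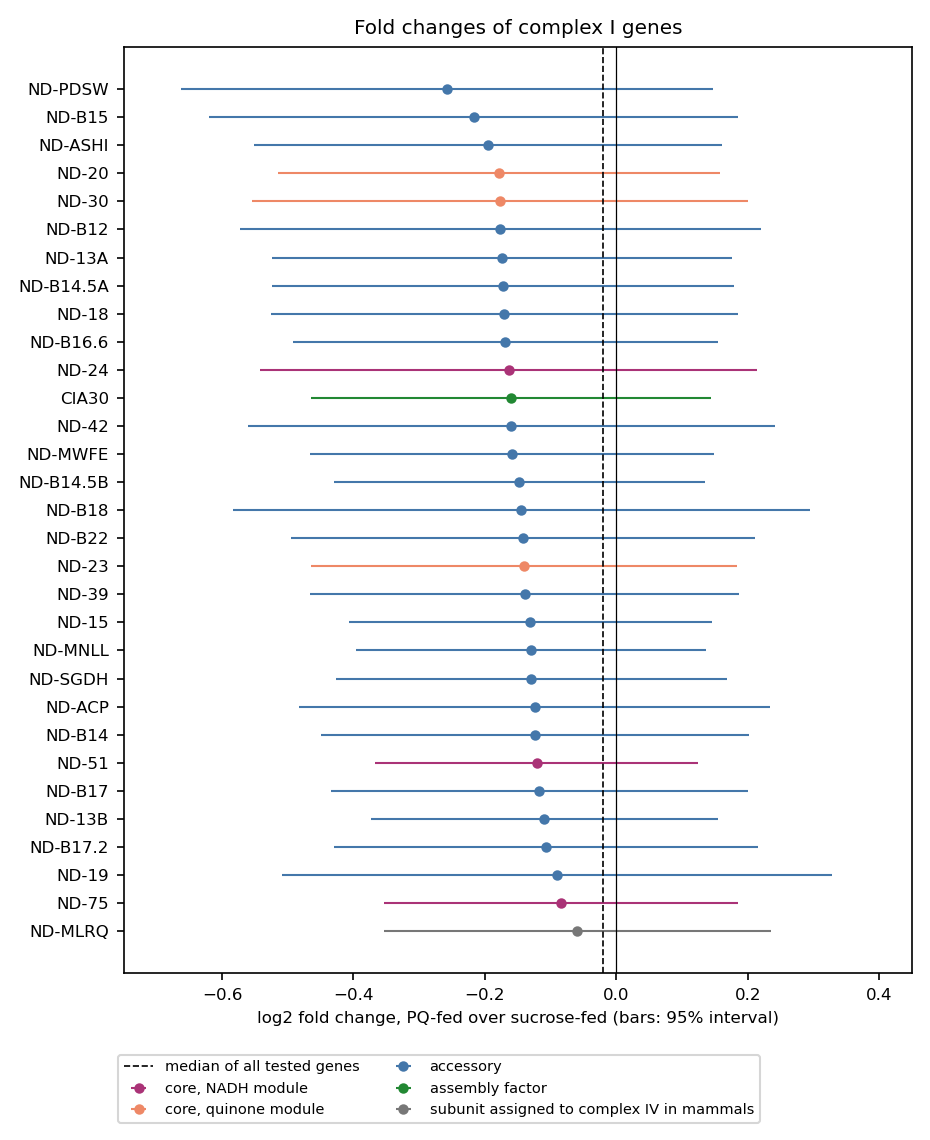
Log2 fold change of the measured complex I genes named in the plot, PQ-fed over sucrose-fed, with bars for the 95% interval of the limma fit. Colours give the class of each gene, the dashed line marks the median of all tested genes at -0.02, and every bar crosses 0.

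The core subunits of the NADH-oxidizing module were measured first. ND-75 (ND75, chrX:8142684-8145699, minus strand) is the ortholog of human NDUFS1, the largest subunit and the carrier of several iron-sulfur clusters. Its RPKM in replicates 1, 2 and 3 was 221, 269.5 and 253 in sucrose-fed flies and 206, 238 and 258 in PQ-fed flies. The groups overlapped, with PQ replicate 3 above 2 of the sucrose libraries and PQ replicate 1 lowest. ND-51 (CG9140, chr2L:6060835-6062757, minus strand), the ortholog of NDUFV1, binds the flavin and NADH. It had the second highest level, with 337, 422 and 371 RPKM after sucrose and 320.5, 351 and 364 after PQ. Sucrose replicate 2 stood above the other 5 libraries, and the PQ values lay on both sides of sucrose replicate 1. ND-24 (CG5703, chrX:17526122-17527539, plus strand), the ortholog of NDUFV2, carries the iron-sulfur cluster on the far side of the flavin. Its values were 123.0, 184 and 152 after sucrose and 118, 139.8 and 148 after PQ, again with sucrose replicate 1 below PQ replicates 2 and 3. The log2 fold changes of these genes were -0.08 ± 0.11 (SE) for ND-75, -0.12 ± 0.10 for ND-51 and -0.16 ± 0.16 for ND-24. All these intervals included 0.

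The core subunits of the quinone-reducing module hold the last iron-sulfur clusters and the site where ubiquinone is reduced. ND-20 (CG9172, chrX:15879877-15880791, minus strand), the ortholog of NDUFS7, carries the terminal cluster. Its values were 222, 313 and 268 after sucrose and 208, 242 and 254 after PQ. The gene was highest in sucrose replicate 2 and lowest in PQ replicate 1, and its groups overlapped. ND-23 (ND23, chr3R:11661770-11662819, minus strand), the ortholog of NDUFS8, carries the clusters before it in the chain. Its values were 208, 287 and 251 after sucrose and 199.9, 226 and 246 after PQ. ND-30 (CG12079, chr3L:3158490-3159573, minus strand), the ortholog of NDUFS3, is a core subunit without a cluster. It had 184, 268.5 and 232 RPKM after sucrose and 173, 206 and 222.5 after PQ. In both of these genes sucrose replicate 1 was again under PQ replicates 2 and 3. The log2 fold changes were -0.18 ± 0.14 for ND-20, -0.14 ± 0.14 for ND-23 and -0.18 ± 0.16 for ND-30. The median over the 7 core subunits was -0.14.

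The accessory subunits gave the same median, -0.14 over 23 genes, with a range from -0.26 to -0.09. Their families follow from the names of their human orthologs. The 10 measured members of the NDUFA family had sucrose means from 88.8 to 236 RPKM and log2 fold changes from -0.17 to -0.09. Those of the NDUFB family, subunits of the distal membrane arm, numbered 9, with sucrose means from 101 to 255 RPKM and log2 fold changes from -0.26 to -0.12. The 3 accessory members of the NDUFS family had sucrose means from 151 to 228 RPKM and log2 fold changes from -0.17 to -0.13. The only NDUFC member, ND-B14.5B (CG12400), had 262 ± 36.9 RPKM after sucrose and 235 ± 19.5 after PQ. No family was called in any member.

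ND-PDSW (chr2L:3466162-3467326, plus strand), the ortholog of NDUFB10, had the lowest fold change. Its RPKM was 153, 229 and 193 in the sucrose libraries and 133, 169.9 and 174 in the PQ libraries. The PQ-fed mean was 83.0% of the sucrose-fed mean, and sucrose replicate 1 lay below PQ replicates 2 and 3. ND-B15 (CG12859, chr2R:10644026-10644578, plus strand), the ortholog of NDUFB4, followed with 108, 159 and 127 against 94.5, 113 and 129.9 RPKM. ND-ASHI (CG3192, chrX:6571294-6573151, minus strand), the ortholog of NDUFB8, had 83.2, 120.1 and 98.3 against 76.5, 87.9 and 97.2 RPKM. Both had PQ replicate 3 above sucrose replicate 1, so their groups overlapped. ND-B16.6 (CG3446, chrX:6243356-6244432, minus strand) is the ortholog of NDUFA13, which is also known as GRIM-19. Its values were 157, 217 and 189 after sucrose and 147, 171 and 181 after PQ. CIA30 (chr3R:25562692-25563792, plus strand), the ortholog of the assembly factor NDUFAF1, had 28.5, 40.6 and 35.5 RPKM against 29.5, 31.5 and 31.7. It was the only measured member with its lowest value in sucrose replicate 1, and its PQ libraries differed little from each other (SD 1.21 against 6.07). These 5 genes and ND-20 had the smallest unadjusted p. Over single genes, a two-sided exact permutation test of the log2 values gave p from 0.4 to 0.5 for the 6, where 3 against 3 libraries cannot go below 0.1.

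At the ends of the range of levels, ND-MLRQ (chr3L:23332426-23334706, plus strand) was listed at 438, 525 and 512 RPKM after sucrose and at 408, 482 and 529 after PQ. It was the only measured member with its highest value in a PQ library, replicate 3. ND-MWFE (CG34439, chr2R:9046118-9047695, plus strand), the ortholog of NDUFA1, was the second lowest with 76.0, 98.8 and 91.5 after sucrose and 68.6, 81.7 and 88.0 after PQ. ND-13B (CG6463, chr3L:10686277-10687206, minus strand), the ortholog of NDUFA5, had 91.0, 112 and 95.3 after sucrose and 81.4, 95.1 and 100.02 after PQ. In both genes the groups overlapped, with log2 fold changes of -0.16 ± 0.13 and -0.11 ± 0.11.

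Among the other accessory subunits, ND-39 (CG6020, NDUFA9), which binds NADPH, had 236 ± 38.9 RPKM after sucrose and 213 ± 22.5 after PQ (mean ± SD, n = 3 in each group). ND-42 (NDUFA10) had 203 ± 39.2 and 181 ± 25.6. ND-ACP (mtacp1, NDUFAB1), the mitochondrial acyl carrier protein, had 194 ± 30.1 and 178 ± 26.5. ND-ACP was the only member selected by the transport term alone. ND-18 (CG12203, NDUFS4), a subunit of the peripheral arm whose loss in humans and mice causes a mitochondrial encephalopathy, had 178 ± 30.5 and 157 ± 20.0. ND-B17.2 (CG3214, NDUFA12) had 215 ± 29.8 and 199.7 ± 26.1, and ND-SGDH (l(3)neo18, NDUFB5) had 255 ± 35.9 and 232 ± 23.4. In each of these genes the group means differed by less than 1 SD of the sucrose libraries. ND-B18 (CG5548, NDUFB7) had the widest error of all members, with a log2 fold change of -0.14 ± 0.18 from means of 152 ± 28.3 and 138 ± 25.9.

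The spread within each group had a common form across the members. For 31 of 32 genes the highest of the 6 values was sucrose replicate 2, against 33.5% of all tested genes. For 31 of 32 the lowest was PQ replicate 1, against 25.1%, and both held for 30 of 32, against 13.1%. A nearer set is the 1545 tested genes at or above the lowest member's mean RPKM and in the members' exon length range, members included. Of these 1545, 882 were highest in sucrose replicate 2, 695 were lowest in PQ replicate 1 and 472 were both. These libraries were picked out after the values were seen, and the counts are a description. ND-MLRQ and CIA30 were the exceptions named above. The commonest full order, found in 16 genes, ran from sucrose 2 through sucrose 3, PQ 3, PQ 2 and sucrose 1 down to PQ 1, and 13 more genes differed from it only in having PQ 3 above sucrose 3. In the commonest order each PQ library lay below the sucrose library of its number. In the 13 further genes PQ replicates 1 and 2 did so, while PQ replicate 3 was above. Both replicates numbered 1 were below the other libraries in all 32 genes. Sucrose replicate 1 was thus under both PQ replicates 2 and 3 in each of them. The groups therefore overlapped in every member, and 0 members had all PQ libraries below all sucrose libraries, against 4.47% of all tested genes, or all above, against 3.11%.

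Each gene was next set against its own mean log2 value over the 6 libraries. The median deviation of the members was -0.16 in sucrose replicate 1, 0.30 in replicate 2 and 0.09 in replicate 3, and -0.26, -0.03 and 0.07 in PQ replicates 1, 2 and 3. Over all tested genes the corresponding medians stayed between -0.03 and 0.03. Summed over the members, RPKM was 5559, 7477 and 6547 in the sucrose libraries and 5161, 6070 and 6506 in the PQ libraries. The members thus took between 1.14% (PQ replicate 1) and 1.51% (sucrose replicate 2) of the summed RPKM of a library. The sums of PQ replicates 2 and 3 lay within the range of the sucrose libraries and that of PQ replicate 1 lay below it. The median SD of log2 values within a group was 0.23 for sucrose and 0.18 for PQ over the members, and 0.13 and 0.10 over all tested genes. Pearson's r between 2 members over the 6 libraries had a median of 0.974 over 496 pairs (range 0.733 to 0.999), where all pairs of tested genes had a median of 0.02. Any property that the libraries share among genes enters these coefficients, and no test was made on them.

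**Figure D3:**
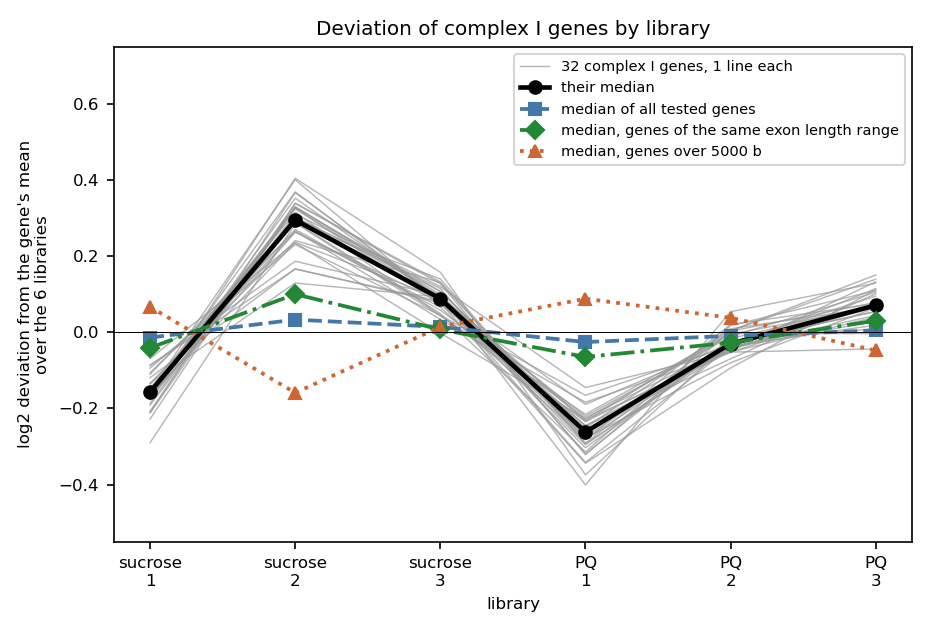
Log2 deviation of each measured complex I gene from its own mean over the 6 libraries (thin lines) with the members' median (black circles). Squares, diamonds and triangles give the medians of all tested genes, of genes in the same range of exon length and of genes over 5000 bases. The members reach 0.30 in sucrose replicate 2 and -0.26 in PQ replicate 1, where all tested genes stay within 0.03 of 0.

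The fold changes of the members depended on those libraries. The median was -0.03 without sucrose replicate 2, with 31 genes negative, and -0.06 without PQ replicate 1, with 27 negative. ND-19 (CG3683) turned positive in both, and ND-MLRQ, ND-75, ND-B18 and ND-ACP only without PQ replicate 1. Without sucrose replicate 1 the median was -0.26, with 32 negative and 5 members at an unadjusted p under 0.05, none of them called in limma. The share of all tested genes at that p is not given for this fit, so the count of 5 has no background beside it. Both sucrose replicate 2 and PQ replicate 1 were then left out, a setting chosen after seeing that these libraries were the extremes. That choice by itself moves the fold changes upward. The median was 0.05 and CIA30 was the only member that stayed negative. Leaving out both replicates numbered 1 was also added after seeing the data. The log2 fold changes then ran from -0.29 for ND-PDSW to -0.04 for ND-MLRQ, so every member was negative. In every one of these settings 0 members were called.

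**Figure D4:**
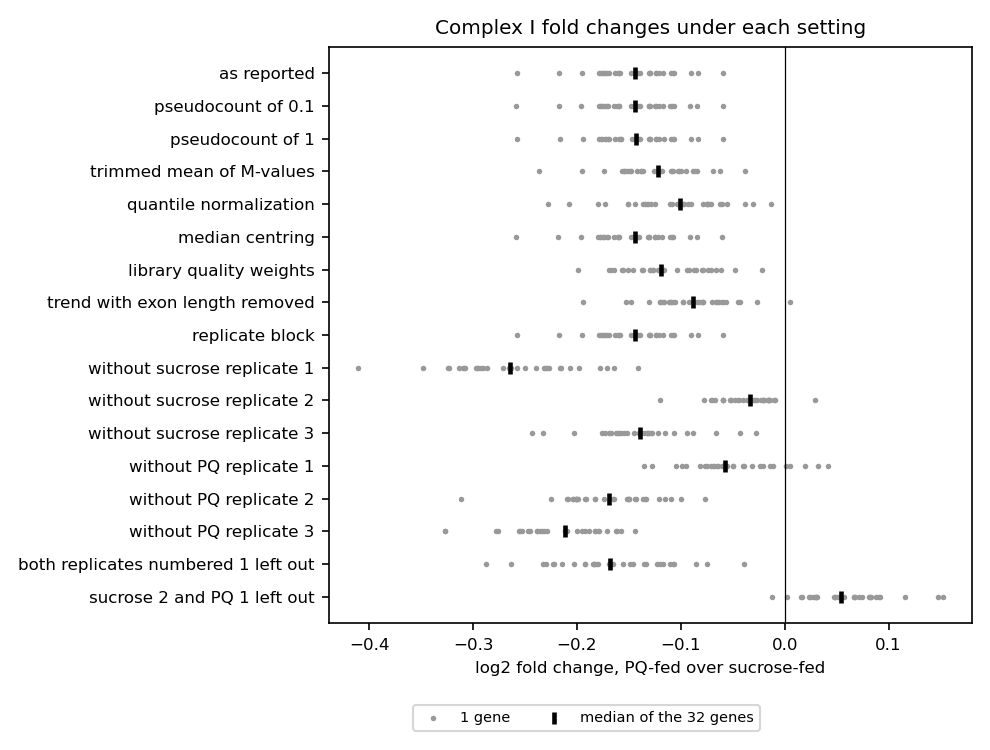
Log2 fold change of the 32 measured complex I genes (grey points) and their median (black bar) as reported and under other settings of the fit. The medians run from -0.26 without sucrose replicate 1 to 0.05 without sucrose replicate 2 and PQ replicate 1.

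Other sets of genes moved with the members between libraries, and their part in the members' fold changes was not tested. The muscle markers, 10 of 10 measured, summed to 2165 to 3218 RPKM in the sucrose libraries and 1942 to 3126 in the PQ libraries. Their median deviation was -0.27, 0.22 and 0.19 in sucrose replicates 1 to 3 and -0.41, 0.09 and 0.20 in PQ replicates 1 to 3. These are the signs found in the members in every library but PQ replicate 2. Muscle is a tissue rich in mitochondria. In bulk heads, fewer cells of a type and less RNA per cell cannot be told apart. Of the muscle markers, the large proteins sls and bt went the other way. They were lowest in sucrose replicate 2 and highest in PQ replicate 1, with log2 fold changes of 0.15 ± 0.13 and 0.13 ± 0.11. The 6 neuronal markers had a median deviation of -0.32 in sucrose replicate 2 and 0.27 in PQ replicate 1. This median came from elav, brp, Syt1 and para, while Syx1A was at 183 RPKM in sucrose replicate 2 against 172 to 185 in the others, and nSyb was lowest in PQ replicate 3. Photoreceptor markers, 10 of 10 measured, summed to 18478 to 21098 RPKM over the 6 libraries. All 10 had a negative log2 fold change (median -0.09), against 57.8% of all tested genes. Of the 10, 9 were highest in sucrose replicate 2, against 33.5%, and 1 was lowest in PQ replicate 1, against 25.1%. Their median deviation in PQ replicate 1 was 0.03. All PQ libraries were below all sucrose libraries in 2 of the 10, against 4.47% of all tested genes, and 0 were called. Genes of neurons (elav, nSyb) and glia (repo) were measured beside the photoreceptor genes, which goes with the head label and is no test of it. Of 3 gut markers, 2 were measured. Amy-p was at 53.3 RPKM in sucrose replicate 2 against 8.81 to 17.8 in the others, and Mal-A1 at 6.96 against 4.99 to 6.55. Fat body markers, 2 of 4 measured, had a median deviation of -0.02 in sucrose replicate 2. Their log2 fold changes went opposite ways, with -0.43 ± 0.33 for Lsp2 and 0.15 ± 0.28 for apolpp. Hemocyte markers had a median deviation of -0.27 in sucrose replicate 2, where He, NimC1 and eater were at the floor, as in sucrose replicate 3. The part of these tissues in the members' values was not tested.

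Exon length moved with the libraries as well. The members are short genes, and tested genes of 500 to 800 bases had a median deviation of 0.16 in sucrose replicate 2 and -0.10 in PQ replicate 1, where genes over 5000 bases had -0.16 and 0.09. Genes in the members' range of exon length, 5710 in all, had 0.10 and -0.07 in those libraries and a median log2 fold change of -0.05. The members' deviations of 0.30 and -0.26 had the same signs and were larger. With each library's trend on exon length removed, the median of the members was -0.09 and ND-MLRQ alone was above 0.

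Relative to each other the members differed very little. When the median of the members in each library was subtracted, the median SD within a group fell to 0.04 for sucrose and 0.04 for PQ on the log2 scale. The relative log2 fold changes then ranged from -0.12 for ND-PDSW to 0.08 for ND-MLRQ, with an SD of 0.04. On this scale 5 members had all PQ libraries below all sucrose libraries, and 0 had all above. The share of all tested genes on this scale is not given, so these counts have no background beside them. The scale was chosen after the values were seen and carries no test.

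The 7 members at the floor fall into different kinds. Of these, 6 are paralogs of a measured subunit, among them ND-51L1 (CG11423) and ND-51L2 (CG8102) beside ND-51, ND-24L (CG6485) beside ND-24, ND-20L beside ND-20 and ND-B14.5AL (CG6914) beside ND-B14.5A. Their parents were measured at 118 to 422 RPKM. Many duplicated respiratory genes of Drosophila are known to be expressed in the testis. All 5 testis markers were at the floor in all 6 libraries of these head samples. Whether the paralogs of this list are expressed in the testis was not tested. The remaining member, ND-B8 (CG15434, chr2L:4454665-4455160, plus strand), is the ortholog of NDUFA2 and has no measured counterpart. It spans 496 bp. Of complex III genes with shorter spans, ox (393 bp) and CG14482 (423 bp) were measured at 242 to 320.4 RPKM and 207 to 325 RPKM. CG30354 (437 bp), also of complex III, had 2.24 and 1.59 RPKM in sucrose replicates 1 and 2 and was at the floor elsewhere. Whether span bears on the value of ND-B8 was not tested. A value at the floor says that the gene was listed at 1 RPKM and gives no level for it.

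Of the measured members, 12 share part of their span with another gene of the table, and whether the counting used strand is not given in the sources used here. The partner of ND-ASHI, l(1)G0255 on the opposite strand, had 121 to 167 RPKM, above ND-ASHI itself. All other partners were at or below 29.5 RPKM in every library. The values of ND-ASHI are therefore uncertain to an extent that the table does not show.

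Genes that act beside the members gave 0 calls. Of the subunits outside the selection, ND-B14.7 (CG9350, the ortholog of NDUFA11) had a log2 fold change of -0.16 ± 0.13 and NP15.6 (the ortholog of NDUFB11) one of -0.20 ± 0.19. A list of 9 assembly factors, CIA30 included, had a median log2 fold change of -0.12 with 7 negative. One of them, Ecsit (ECSIT), had an unadjusted p under 0.05 in limma, against 3.89% of all tested genes. Its RPKM was 8.64, 10.6 and 9.21 after sucrose and 7.56, 8.14 and 7.52 after PQ. Its PQ libraries all lay below its sucrose libraries, as in 4.47% of all tested genes. Its log2 fold change was -0.27 ± 0.10, and its adjusted p in limma was 0.951. The 10 genes of iron-sulfur cluster synthesis, which supplies the clusters of the peripheral arm, had a median of -0.02 with 8 negative. The ferredoxin Fdxh had the highest value of that list, 0.24 ± 0.12, from 12.5 ± 1.79 RPKM after sucrose and 14.8 ± 1.06 after PQ. Its PQ libraries were all above its sucrose libraries, as in 3.11% of all tested genes. The 6 regulators of mitochondrial biogenesis had a median of -0.03, and the 8 mitochondrial chaperones, proteases and quality control genes also had -0.03. Among these, Spargel, the PGC-1 homolog of Drosophila, was at 0.06 ± 0.13, from values near the floor (2.04 to 2.92 RPKM). The regulator with the smallest unadjusted p, mtTFB2, was at -0.20 ± 0.10, and Pink1 was at -0.05 ± 0.09.

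The other respiratory complexes followed the pattern of complex I by library. Median log2 fold changes were -0.12 for 3 tested genes annotated to complex II, -0.13 for 9 of complex III, -0.12 for 12 of complex IV and -0.12 for 14 of ATP synthase, with 0 genes called in each. The sets were taken from the annotation of the table as it stands. That of ATP synthase includes T-cp1, a cytosolic chaperonin subunit and the only gene of the set above 0 (0.06 ± 0.06). In complex III, CG30354 was at the floor in 4 libraries, and CG3560 was listed at 201 and 186 RPKM in the replicates numbered 1 and at the floor in the other 4. In complex IV, CG30093 was at the floor in 5 libraries. Their median deviations lay between 0.26 and 0.30 in sucrose replicate 2 and between -0.26 and -0.24 in PQ replicate 1, beside 0.30 and -0.26 for complex I. The 75 genes of the mitochondrial ribosome had a median of -0.13, with 71 negative, where 57.8% of all tested genes were negative, and 4 whose PQ libraries all lay below the sucrose libraries, a share near the 4.47% of all tested genes. The difference between complex I and these complexes was not tested.

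**Figure D5:**
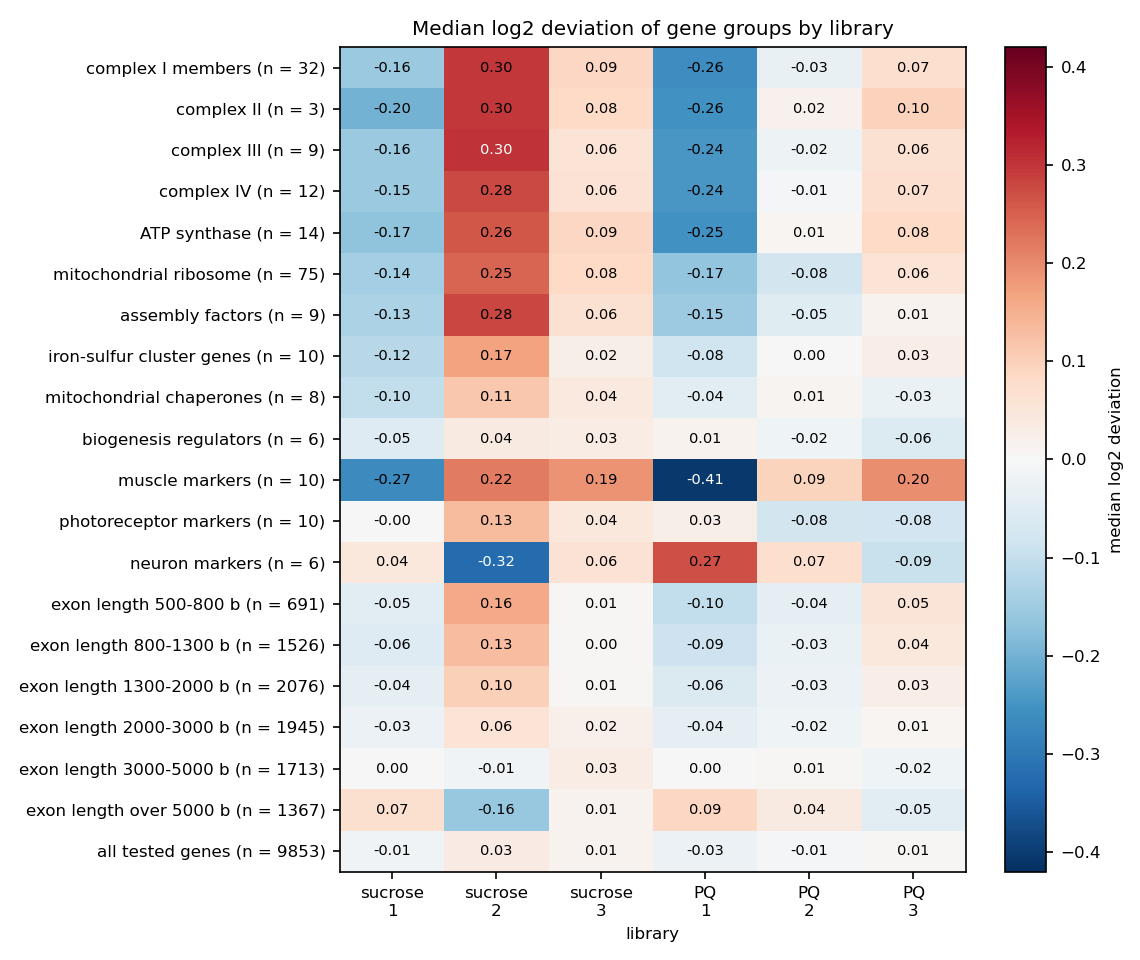
Median log2 deviation of gene groups in each library from each gene's own mean, as a coloured grid with the value printed in each cell and the number of tested genes beside each name. The rows of complexes I to IV and ATP synthase are alike, with 0.26 to 0.30 in sucrose replicate 2 and -0.26 to -0.24 in PQ replicate 1.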

How the data were processed

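The deposited values are RPKM per gene and library, which the authors derived from reads aligned with TopHat2 2.0 to the dm3 assembly, and 1 is the lowest of them. The study's methods name trimmed means of M-values as normalization, and the tool that computed RPKM is not given in the sources used here. The table holds no read counts, so neither depth nor counting error is known, and errors describe the libraries' spread only. The methods name more replicates than the 6 libraries used, and the others were not analysed here. A second deposited table with the authors' own fold changes and p-values was not used.

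Genes at 1 RPKM in all 6 libraries (4751) were left out, which leaves 9853. On the log2(RPKM + 0.5) scale, which was not rescaled and understates fold changes of low genes, groups were compared by limma (version 3.58.1, R 4.3.3, mean-variance trend, Benjamini-Hochberg over all tested genes, adjusted p under 0.05). The script was tested on simulated data. The labels number the replicates but do not say that a number marks a shared day or batch, and p-values measure the spread between these libraries.

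Members and gene lists were chosen with earlier results of these data known. By rule, values per library were given for the core subunits, for members past the test or with groups that do not overlap, for the 6 members with the smallest p, for the 3 highest and 3 lowest members and for those at the floor. Up to 3 genes with the smallest p could be named of each other list. The results of 1 member and its paralog are counted in the totals but not reported singly here. Names beyond that were chosen after their values were seen. Current symbols and exon lengths came from RefSeq and Ensembl annotation of Release 6 and were matched for all 39 members, and coordinates are those of the deposited table. Nucleotide and protein sequences were not used here.

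Each library was left out in turn. The fit was also repeated with the pseudocount at 0.1 or 1 and with the filter dropped or raised to a mean of 5 RPKM. Further fits used 3 other scalings, weights for library quality, the replicate number as a block, or robust or trend-free moderation. The median was also taken over structural subunits only, from the fit as reported. Removal of the exon length trend (lowess, span 0.3), leaving out both replicates numbered 1, and leaving out sucrose replicate 2 with PQ replicate 1 were added after seeing the data. Figures were made in Python 3.11.15 (matplotlib 3.10.9).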

Additional observations from a re-analysis of the deposited data

How the results depend on the processing

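The count of complex I members called was 0 under every setting, and their median log2 fold change stayed between -0.26 and -0.03 when 1 library was left out, and between -0.14 and -0.10 with other pseudocounts, filters, scalings or weights. With sucrose replicate 2 and PQ replicate 1 left out it was 0.05, and the named members turned to 0.0509 (CG12079), 0.0471 (CG12859), 0.0308 (CG3192), 0.0921 (CG32230), 0.0233 (CG34439), 0.0277 (CG3446), 0.0749 (CG5703), 0.0667 (CG6463), 0.0163 (CG9140), 0.0248 (CG9172), 0.0489 (ND23), 0.0681 (ND75) and 0.0025 (Pdsw). Those libraries were chosen as the members' extremes, so leaving them out moves the fold changes upward by construction. With both replicates numbered 1 left out, the named members ran from -0.288 (Pdsw) to -0.0394 (CG32230). Without 1 library at a time, CG32230 ranged from -0.144 to 0.0422 and ND75 from -0.164 to 0.00548. CG32230 was at 0.00511 with the exon length trend removed. The cause was not tested for any of these.

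Over all tested genes, 8 were called. The count was 5 with a pseudocount of 0.1, 1 with no filter, 0 with quantile normalization, 0 without a trend, 245 with library quality weights (188 higher and 57 lower), 0 to 5 without 1 library, and 0 with both replicates numbered 1 left out. Of the members, 1 had an unadjusted p under 0.05 with quality weights (smallest adjusted p in limma 0.168) and 2 without the replicates numbered 1. The shares of all tested genes at that p are not given for these fits, so the member counts have no background beside them.

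Same-numbered libraries deviated together with r = 0.41, 0.06 and 0.05 for replicates 1, 2 and 3. The labels give no pairing, and the fit as reported used no block. With the replicate block, 4 genes and 0 members were called, the members' median was -0.14 and 1 member had an unadjusted p under 0.05. For this fit too, the share of all tested genes at that p is not given. The SE of the log2 fold change of ND-30 was 0.09 with the block and 0.16 without it. That of ND-51 was 0.08 with the block and 0.10 without it. Depth could not be assessed, since the table holds no counts.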
